A study of Rattus norvegicus with 16 samples.

Results

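Genes of DNA replication and of the step from G1 into S phase were followed in cultured rat cells of the levator ani, a muscle of the pelvic floor that responds to androgens. The list held 45 gene symbols. A member was a probe set, the group of array probes that measures a transcript, annotated with exactly 1 of these symbols whose signal averaged 300 or more on 13 arrays. Of the listed genes, 42 had such an annotation and 3 (Cdc6, Gins2 and Rrm2) did not. This left 50 probe sets of 20904 tested, which stood for 39 genes of 11286. Genes with more than 1 member probe set were read from the brightest of them. Orc1, Pola2 and Chaf1a were on the array but below the minimum, with mean signals of 179.6, 203 and 81.6. Just inside the minimum lay a second probe set of Orc6, at 303, and just outside lay a further one of the same gene, at 298.

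DNA replication begins with licensing in G1, when the origin recognition complex, Cdc6 and Cdt1 load the ring-shaped MCM helicase onto DNA. At the start of S phase, Cdc45 and the GINS complex join MCM to form the active helicase, and polymerases, primase, the sliding clamp PCNA and its loader then copy the strands. Many of these genes are transcribed under E2F factors, which the retinoblastoma protein holds back until cyclin D and cyclin E kinases release them. Their summed RNA is widely used as a sign of how many cells of a culture are near S phase, and in muscle precursor cells it drops when the cells leave the cycle. In bulk RNA, fewer cells in S phase and less RNA per cell cannot be told apart.

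All groups were passage 5 cells that the labels call muscle satellite cells, held during treatment in medium with charcoal-stripped serum, which is poor in steroids. Controls had received vehicle, given as 0.2% DMSO, for 4 h or 48 h, and treated cells had received NARA, an agonist of the androgen receptor that is not a steroid, at 10 nM for the same times. The authors kept 13 of 16 arrays, and the comparisons here used the same 13: 4 of vehicle at 4 h (replicates 1 to 4), 2 of NARA at 4 h (replicates 2 and 3), 3 of vehicle at 48 h (replicates 2 to 4) and 4 of NARA at 48 h (replicates 1 to 4). The labels name biological replicates and do not say whether these were separate cultures or animals, so the spread behind each p-value may be technical. Of 11 satellite cell and myoblast markers with a probe set of their own, 9 were above the minimum. They included the cadherin Cdh15, at 1275 ± 203 (SD, n = 13), Ncam1 at 1140.4 ± 314, Itga7 at 546 ± 233, Cxcr4 at 2848 ± 1821 and Sdc4 at 8548 ± 1985. Of the transcription factors that define the lineage, Pax7 and Myf5 had no probe set under their symbol alone and Myod1 lay below the minimum, at 83.9 ± 87.2. Myog and Des were measured at 1117 ± 362 and 774 ± 126. Of 13 fibroblast markers, 12 were above the minimum, with the collagen gene Col1a2 at 134203 ± 15276 and Vim at 119085 ± 16104. Pax7 and Myf5 thus gave no check of the labelled cell type, while Myod1 was measured and low. By mean signal, Myod1 lay above 9.01% of the probe sets other than controls, Myog above 66.4% and Col1a2 above 99.99%. Which cells made up the cultures was not tested. Chaf1b had a mean signal of 239 over the 7 vehicle arrays, under the minimum, and became a member through its NARA arrays, so its NARA values below are a description with no test.

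The promoters of the members held letters that the choice of members had not used. RefSeq promoter windows of the rat build GRCr8, from 250 bases before to 50 bases after the transcription start, were found for 35 of the 39 members. The E2F-type letters TTTCCCGC or TTTGGCGC, on either strand, occurred in 12 of these, or 34.3%, against 1.49% of 27457 windows of all genes. They occurred in 0 of 28 windows of mitosis genes, a list used below for comparison. CCAAT, the box bound by NF-Y, was found in 60% of member windows, 75% of mitosis gene windows and 37.7% of all. TTTGAA, the letters of the cell cycle homology element of mitotic promoters, was in 5.71%, 64.3% and 18.2%. The median GC content was 59.7% for members, 58.3% for mitosis genes and 52.3% for all windows, and letters alone do not show a bound site. The 150 bases before the start are printed for the 3 members of smallest p in the comparison of culture time that had the E2F-type letters there, and for Pcna, the member of smallest p with none in its window. Capitals mark those letters.
Gins1 at chr3:160184770-160184919, plus strand: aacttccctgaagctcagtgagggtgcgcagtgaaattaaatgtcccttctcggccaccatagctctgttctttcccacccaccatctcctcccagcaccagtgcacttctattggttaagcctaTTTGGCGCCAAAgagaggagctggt
Mcm6 at chr13:42404353-42404502, minus strand: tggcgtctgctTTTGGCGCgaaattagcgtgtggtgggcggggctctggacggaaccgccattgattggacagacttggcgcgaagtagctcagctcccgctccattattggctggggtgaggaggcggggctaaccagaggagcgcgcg
Tyms at chr9:120776084-120776233, minus strand: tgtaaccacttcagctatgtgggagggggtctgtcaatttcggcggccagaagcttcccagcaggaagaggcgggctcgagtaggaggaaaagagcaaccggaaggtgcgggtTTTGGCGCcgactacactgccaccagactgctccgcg
Pcna at chr3:139955821-139955970, minus strand: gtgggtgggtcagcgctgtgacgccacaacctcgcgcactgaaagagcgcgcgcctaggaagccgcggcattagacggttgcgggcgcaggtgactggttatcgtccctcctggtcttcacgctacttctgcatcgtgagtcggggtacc
In Gins1 the letters on both strands overlap and form a palindrome. In the Tyms promoter the match begins at position -37 relative to the start, in Gins1 at -25 and in Mcm6 at -139.

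Each deposited value is a MAS5 signal, a probe set brightness on a linear scale that the authors set to a trimmed mean of 1500 on every array. Pairs of the 13 arrays had correlations between 0.928 and 0.962 across the probe sets tested, which are not independent replicates. Their median signals lay between 539 and 613, and the 3'-to-5' signal ratio of the Gapdh control between 1.06 and 1.36. The 2 left-out arrays of NARA at 4 h held liver plasma protein signals, with a summed signal of 11 liver genes of 1567015 and 1949482 against at most 6496 on the 13. Signals are listed below in replicate order. Log2 changes are on the log2(signal + 50) scale and are given ± the standard error (SE) of the fit, and tests are limma's with Benjamini-Hochberg adjustment over all probe sets tested. No member reached an adjusted p of 0.05 in any comparison, so members are described as higher or lower, with counts at an unadjusted p under 0.05 set beside the same count over all probe sets.

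**Figure D1:**
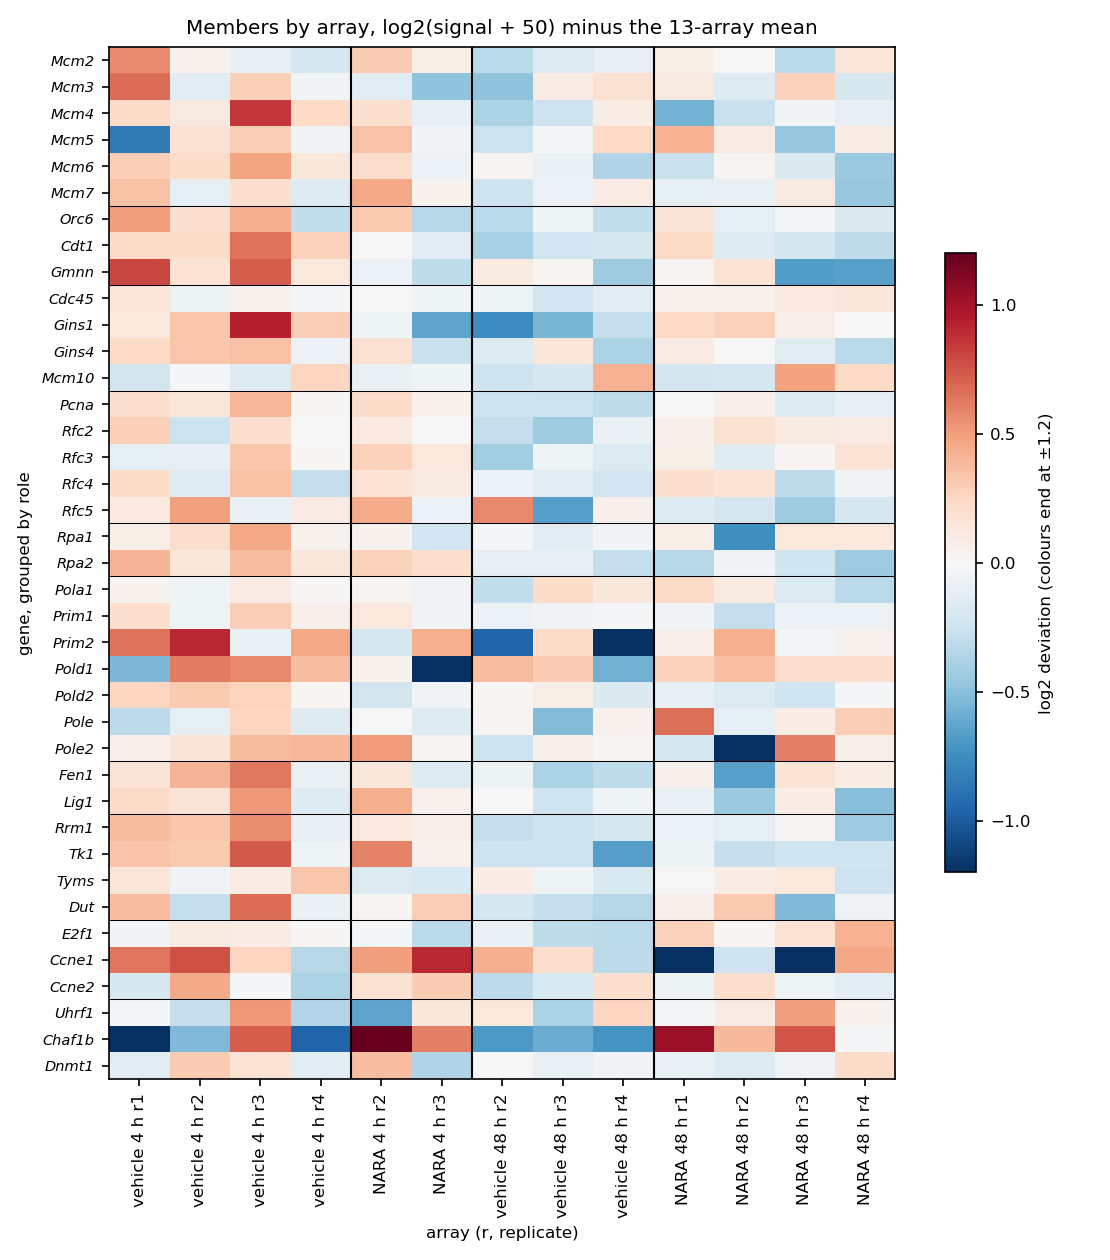
Heat map of the 39 members (rows, grouped by role between the thin lines) on the 13 arrays (columns, grouped by treatment and time between the thick lines). Colour gives log2(signal + 50) minus the gene's mean over the 13 arrays, and the colours end at ±1.2. Vehicle 4 h replicate 3 is red for 34 of the 39 genes, and each array of vehicle at 48 h is blue for 28 to 30 of them.

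The members' mean log2 deviation from the 13-array mean was 0.13, 0.14, 0.35 and -0.016 in vehicle at 4 h, and -0.17, -0.15 and -0.19 in vehicle at 48 h. It was 0.16 and -0.071 in NARA at 4 h and 0.0089, -0.086, -0.053 and -0.068 in NARA at 48 h. The 3 arrays of vehicle at 48 h lay lowest of all 13 and close to each other, while those of vehicle at 4 h spread widely and the lowest of them lay within the range of NARA at 48 h. Vehicle 4 h replicate 3 was the highest of its group for 20 of 39 members, against 27% of all probe sets. Replicate 4 of the same group was the lowest for 18, against 24.7% of all. Of the pair of NARA 4 h arrays, replicate 3 was the lower for 32 of 39, against 50.9% of all probe sets. Replicates of a group thus differed in the level of the whole set. The mitosis genes took a like course over the vehicle arrays. Their mean deviations there were 0.32, 0.044, 0.65 and -0.063 at 4 h and -0.38, -0.24 and -0.32 at 48 h. With NARA they were 0.24 and -0.079 at 4 h and 0.057, 0.093, -0.21 and -0.11 at 48 h. NARA 48 h replicate 2 was thus the highest of its group for mitosis genes and the lowest for members.

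**Figure D2:**
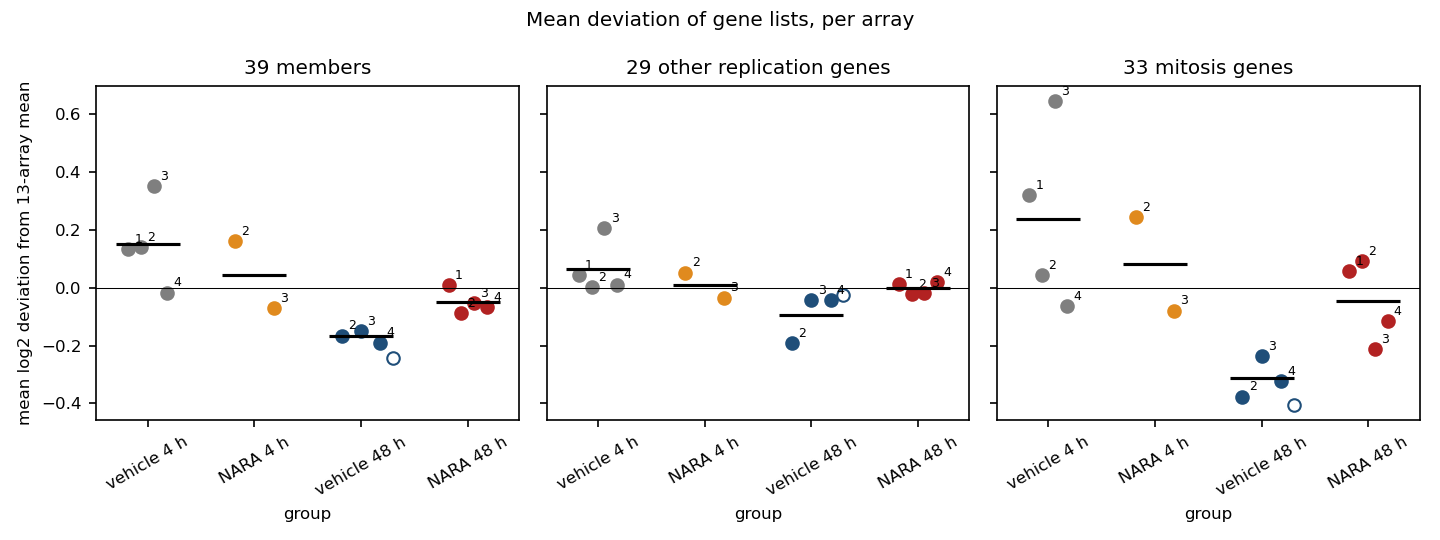
Mean log2 deviation from the 13-array mean, per array, for the 39 members (left), 29 other replication genes (middle) and 33 mitosis genes (right). Filled points are the 13 arrays with their replicate number, bars are group means, and the open point is vehicle 48 h replicate 1, left out by the authors. For the members, vehicle at 48 h lies between -0.19 and -0.15, and the open point at -0.24.

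The comparison of culture time set vehicle at 48 h against vehicle at 4 h. Replication genes were lower at 48 h nearly throughout, with 36 of 39 members below 0 on the log2 scale, against 49.2% of all probe sets. The members' median log2 change was -0.26, with quartiles of -0.44 and -0.17, and that of all probe sets was 0.0045. Gins1, a GINS subunit, Tk1, the S-phase thymidine kinase, and Cdt1, the licensing factor, were among the lowest. With an unadjusted p under 0.05, 13 members were lower and 0 higher, against 3.89% and 3.45% of all probe sets. After adjustment none passed in limma, and neither did any of the 20904 probe sets (0% called), the smallest adjusted p being 0.421. For 12 members every 48 h array lay below every 4 h array and for 0 above, against 4.62% and 4.28% of all probe sets. Without vehicle 4 h replicate 3, in which the set was highest, 8 members were lower at an unadjusted p under 0.05 and the median was -0.25. The summed signal of 7 smooth muscle markers, all above the minimum, was 19051 to 26631 in vehicle at 4 h and 16118 to 18648 at 48 h. Tagln and Acta2 lead this sum, and singly 4 of the 7 markers were below 0 and 3 above. Their part in the result was not tested. The summed signal of the fibroblast markers overlapped, at 557728 to 689321 and 549282 to 687914.

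Of the 6 MCM helicase genes, which encode the ring loaded at origins, 5 were lower at 48 h and 2 of these had an unadjusted p under 0.05. Mcm4 had signals of 2152, 1981, 3334 and 2172 in vehicle at 4 h and 1394, 1535 and 1954 at 48 h, a log2 change of -0.54 ± 0.199. Mcm6 had 2114, 1995, 2393 and 1878 at 4 h and 1753, 1612 and 1317 at 48 h, a log2 change of -0.42 ± 0.147. In both genes every 48 h array lay below every 4 h array. Mcm2, Mcm3 and Mcm7 had log2 changes of -0.27, -0.26 and -0.15, and their groups overlapped. Mcm5 was at 0.095 ± 0.278, and its sign turned to -0.15 without vehicle 4 h replicate 1, where its signal was 435 against 799.7 to 1026 in the other replicates.

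The 3 measured licensing genes were all lower at 48 h, with a median of -0.56. Cdt1, which brings MCM to origins, had signals of 681, 680.0, 934 and 705 at 4 h and 426, 483 and 493 at 48 h, so that it was 1.54-fold lower (log2 change -0.62 ± 0.151, limma adjusted p = 0.450). Gmnn, the geminin gene, whose product binds Cdt1 and blocks relicensing, had 2549.8, 1619.7, 2415 and 1575 against 1554, 1454 and 1061. Neither gene's groups overlapped. Gmnn was at -0.56 ± 0.256, but its other probe set, with a mean signal of 444, was at 0.51. Orc6, a subunit of the origin recognition complex, was at -0.43 ± 0.205, with a 4 h replicate (772) inside the 48 h range.

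Among 4 genes of helicase activation, Gins1 stood lowest. Its signals were 582, 682, 1054 and 661 in vehicle at 4 h and 294, 347 and 424 at 48 h, with no overlap, and it was 1.93-fold lower (log2 change -0.95 ± 0.205, limma adjusted p = 0.421). Gins4, another GINS subunit, was at -0.35 ± 0.171 and Cdc45, the partner of GINS and MCM, at -0.17 ± 0.0909. Mcm10, which helps start unwinding, was at 0.020, and at -0.15 as the mean of its probe sets.

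The clamp gene Pcna, whose protein tethers polymerases to DNA, had the brightest member probe set. It had 12955, 12454, 14967 and 11416 in vehicle at 4 h and 9549.7, 9442 and 9165 at 48 h, a log2 change of -0.46 ± 0.111 (limma adjusted p = 0.450). The 48 h arrays lay within a narrow range below all 4 h arrays, so Pcna was 1.37-fold lower. The clamp loader, which opens PCNA around DNA, was measured by 4 genes. Rfc2 was at -0.33 ± 0.135, Rfc3 at -0.24 ± 0.139, Rfc4 at -0.17 ± 0.168 and Rfc5 at -0.17 ± 0.253, of which Rfc2 had an unadjusted p under 0.05. Rpa2, of the complex that coats single-stranded DNA, had 1406, 1157, 1372 and 1159 at 4 h and 978, 976 and 849 at 48 h, a log2 change of -0.42 ± 0.122, while Rpa1 was at -0.25 ± 0.204. Both were without overlap between the groups.

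All 7 genes of polymerases and primase had a negative log2 change, with a median of -0.23. Prim2, the large primase subunit, had the lowest value of any member, -1.37 ± 0.410, with signals of 1045, 1253, 608 and 899.8 at 4 h and 306, 759.6 and 133 at 48 h. These groups overlapped, because vehicle 48 h replicate 3 lay above a 4 h array. Pold2, a subunit of polymerase delta, was at -0.24 ± 0.112. Prim1, the catalytic primase subunit, was at -0.17 ± 0.111 and Pola1, the catalytic subunit of polymerase alpha, at -0.0065. Pold1, the catalytic subunit of polymerase delta, was at -0.23 ± 0.458, and the polymerase epsilon genes Pole and Pole2 were at -0.068 ± 0.206 and -0.31 ± 0.436. Pole2 was without overlap between the groups, at 707, 757, 892 and 906 against 558, 703 and 684. Of the genes that finish Okazaki fragments, the flap nuclease Fen1 had 1248, 1489.8, 1754 and 1042 at 4 h and 1062, 843 and 892 at 48 h, a log2 change of -0.53 ± 0.219 with overlap, and the ligase Lig1 was at -0.29 ± 0.189.

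The 4 measured genes of nucleotide supply had the lowest median of the groups with over 3 members, -0.49. Tk1, which salvages thymidine in S phase, had 3313, 3240.3, 4375 and 2504 in vehicle at 4 h and 2184, 2173 and 1628 at 48 h. No array overlapped, and Tk1 was 1.65-fold lower (log2 change -0.72 ± 0.192). Its other probe sets were at -0.63 and -0.95. Rrm1, the large subunit of ribonucleotide reductase, had 4405, 4263, 4963 and 3129 against 2758, 2804 and 2893, a log2 change of -0.54 ± 0.155, also without overlap. Dut, which removes dUTP, was at -0.44 ± 0.237 and Tyms, which makes thymidylate, at -0.18 ± 0.125, both with overlapping arrays. Their adjusted p-values in limma were 0.469 for Tk1, 0.506 for Rrm1, 0.701 for Dut and 0.787 for Tyms.

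Chromatin genes were nearer to 0, with a median of -0.092, while the G1/S regulators had one of -0.22, beside -0.26 for all members. E2f1, the transcription factor, had 1157, 1278, 1264 and 1192 in vehicle at 4 h and 1117, 951 and 935 at 48 h, a small difference of -0.28 ± 0.122 without overlap. The cyclin E genes were at -0.22 ± 0.484 (Ccne1) and -0.072 ± 0.192 (Ccne2). A dimmer probe set of Ccne2 was at 0.83. Of the genes that rebuild chromatin and its methylation behind the fork, Chaf1b, a subunit of chromatin assembly factor, was at -0.15 ± 0.411, Dnmt1, the maintenance methyltransferase, at -0.092 ± 0.177 and Uhrf1, which recruits Dnmt1, at 0.033 ± 0.255. None of these 3 had an unadjusted p under 0.05. Members with and without the E2F-type letters in their promoter windows had medians of -0.25 (12 genes) and -0.25 (23 genes), given as a description.

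**Figure D3:**
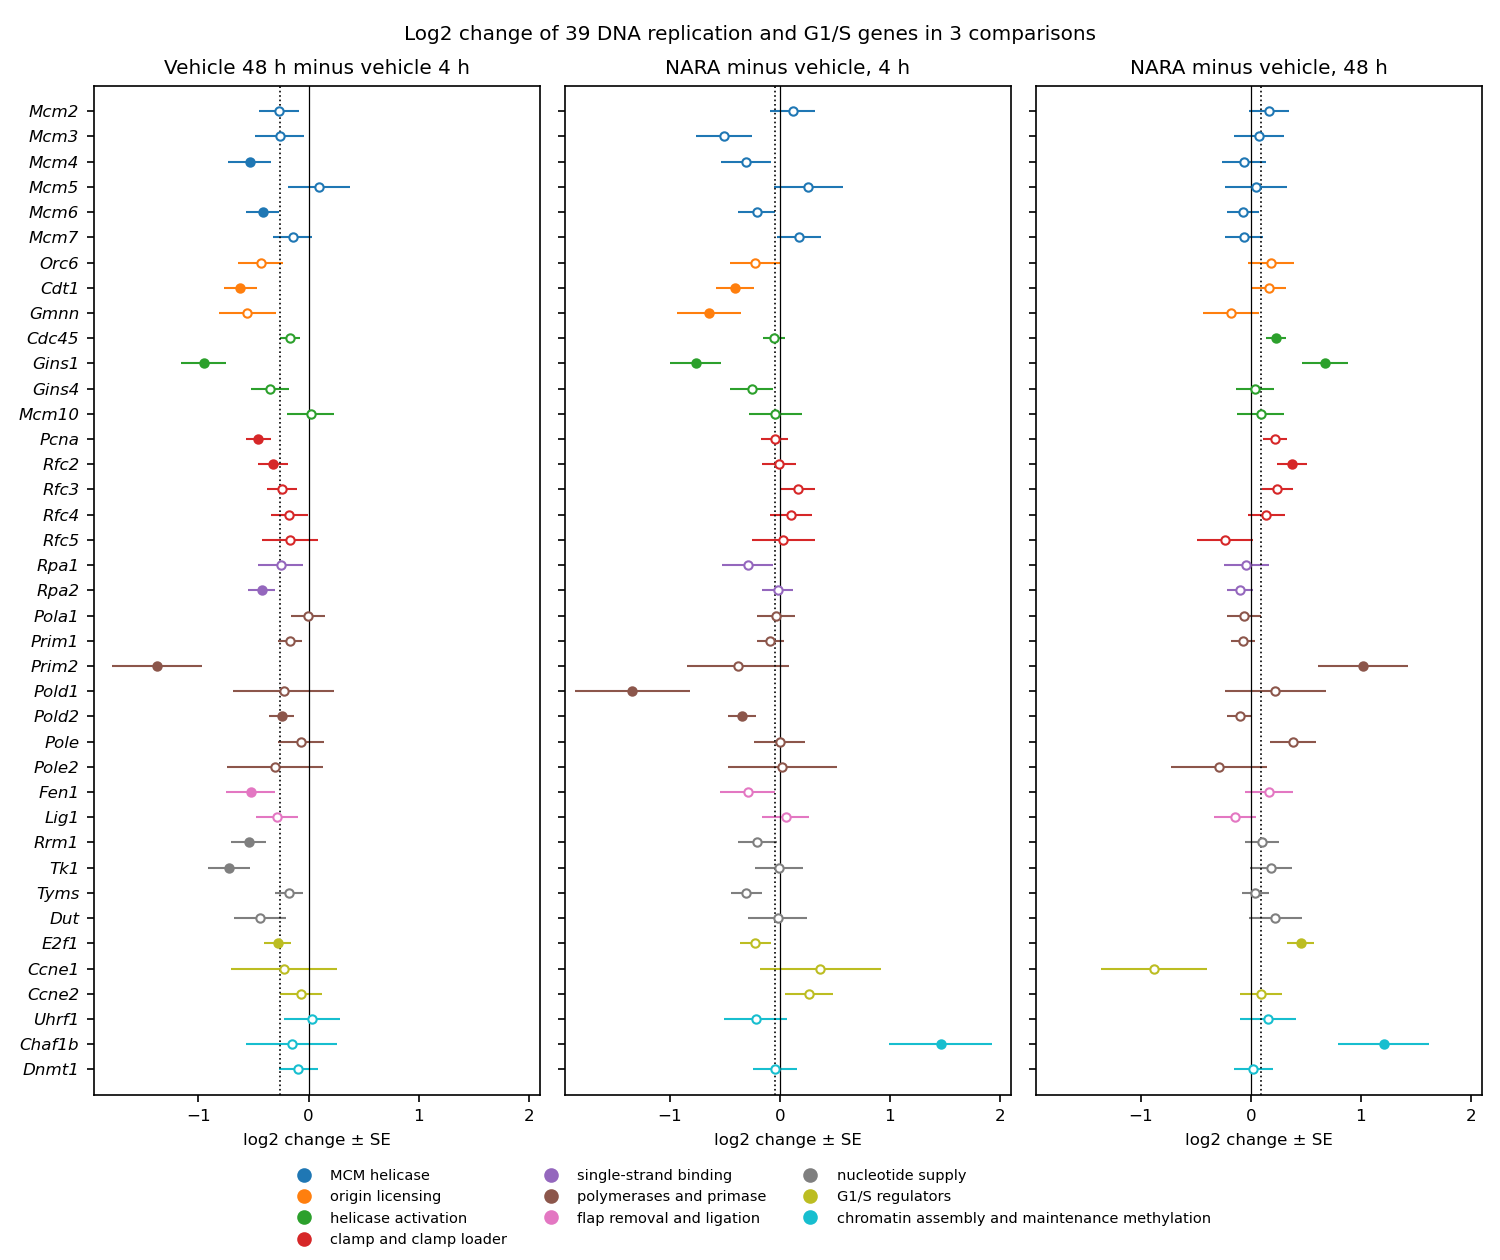
Log2 change ± SE from limma of the 39 members (rows, coloured by role) for vehicle at 48 h minus 4 h (left), NARA minus vehicle at 4 h (middle) and NARA minus vehicle at 48 h (right). Filled points have an unadjusted p under 0.05, open points do not, and the dotted lines are the members' medians, -0.26, -0.046 and 0.094. Filled points number 13, 6 and 6, and none passed adjustment. Chaf1b is among those of both NARA comparisons, where its values are a description with no test.

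The comparison at 4 h asked whether 10 nM NARA altered these genes early. It shares the vehicle 4 h arrays with the comparison of culture time, and rests on 2 NARA arrays. The members' median was -0.046, near that of all probe sets, 0.0072, and 27 of 39 were below 0 against 48.5% of all. With an unadjusted p under 0.05, 5 of the 38 members without Chaf1b were lower and 0 higher, against 2.69% and 2.05% of all probe sets. In limma 0 members passed after adjustment, as did 0 of all probe sets (0% called). Leaving out replicate 3 of NARA gave 1 lower member and a median of 3.3e-05. Leaving out replicate 2 gave 2 and a median of -0.17, and leaving out vehicle replicate 3 gave 2. The groups did not overlap for 6 lower members and 0 higher ones, against 6.96% and 7.32% of all probe sets. Summed satellite cell markers (9 of 11 above the minimum) lay at 15891 to 17948 in NARA and 18033 to 20489 in vehicle. Sdc4 and Cxcr4 lead this sum, and singly 5 of the 9 markers were below 0 and 4 above. The sums of 4 Schwann and neural markers lay at 1495 to 1889 in NARA and 2047 to 2229 in vehicle, and the part of either list was not tested.

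Gins1, Cdt1, Gmnn, Pold1 and Pold2 were the lower members with an unadjusted p under 0.05 at 4 h. Gins1 had 510.0 and 323 in NARA, below each of the 4 vehicle arrays listed above, with a log2 difference of -0.76 ± 0.232 and limma adjusted p = 0.771. Cdt1 had 578 and 522 in NARA, also below every vehicle array, at -0.41 ± 0.171. Gmnn had 1371 and 1154, at -0.64 ± 0.290, and at 0.12 as the mean of its probe sets. Gins4, the other GINS gene, was at -0.25 ± 0.194 and Orc6, of licensing, at -0.22 ± 0.233, neither with an unadjusted p under 0.05. Pold2 had 1149 and 1316 in NARA and 1618, 1686, 1632 and 1364 in vehicle, a difference of -0.34 ± 0.126. Mcm3 and Tyms also lay lower without overlap, at -0.51 and -0.30.

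For other members at 4 h a single array stood apart. Pold1 was at -1.34 ± 0.520, with signals of 517 and 69.1 in NARA and 329, 797, 770.4 and 659 in vehicle. It was at -0.21 without NARA 4 h replicate 3, the array with the lower value. Chaf1b, described without a test, had 912 and 548 in NARA and 111, 222, 598 and 152 in vehicle, and its groups overlapped. The clamp loader genes lay between -0.046 and 0.17 together with Pcna, and the MCM genes between -0.51 (Mcm3) and 0.26 (Mcm5). On the higher side, Ccne1 was at 0.37 ± 0.549, Ccne2 at 0.27 ± 0.218, Mcm7 at 0.18 ± 0.198 and Rfc3 at 0.17 ± 0.157, all with overlapping groups. The dimmer probe set of Ccne2 had 515 ± 92.7 (SD, n = 2) with NARA, against 213 ± 108 (SD, n = 4) without it. Over the vehicle arrays this probe set averaged under the minimum, so these values are a description with no test. Mcm5 was at 0.26 ± 0.315. E2f1 was at -0.22 ± 0.139, with 1163 and 932 in NARA. Pcna, Tk1 and Prim1 had differences of -0.046, -0.0058 and -0.085, within the spread of their replicates.

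At 48 h, NARA was set against the vehicle cells of the same time, the arrays in which the set lay lowest. These vehicle arrays are shared with the comparison of culture time. Members were somewhat higher in NARA, with a median log2 difference of 0.094 against -0.0037 for all probe sets and 26 of 39 above 0, against 49.5%. Without Chaf1b the median was 0.091 and 25 of 38 were above 0. E2f1, Gins1, Rfc2, Cdc45 and Prim2 had an unadjusted p under 0.05, all higher. That is 5 higher and 0 lower of the 38 members without Chaf1b, against 7.63% and 8.38% of all probe sets. With limma 0 members passed after adjustment, while 2.8% of all probe sets did. Groups without overlap were found for 5 higher and 0 lower of the same 38 members, against 7.19% and 7.53% of all probe sets.

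Markers of cell types also differed with NARA at 48 h, and their part in the members' values was not tested. Satellite cell marker sums were 11954 to 14727 in NARA and 19010.3 to 22627 in vehicle, and smooth muscle sums 11527 to 16034 and 16118 to 18648. Singly, 4 of the 7 smooth muscle markers were below 0 and 3 above. Of the 9 satellite cell markers tested, Cxcr4, a chemokine receptor, fell from 4923 ± 401 (SD, n = 3) to 590.0 ± 218 (SD, n = 4) (limma adjusted p = 0.000157). Sdc4, a cell surface proteoglycan, fell from 10613 ± 2169 (SD, n = 3) to 6362 ± 800.2 (SD, n = 4) (limma adjusted p = 0.0305). Itga7 and Ncam1 were at 0.95 ± 0.357 and 0.63 ± 0.244, and 4 of the 9 were above 0. Of 12 fibroblast markers, 2 fell, the proteoglycan gene Lum by 1.06 on the log2 scale (limma adjusted p = 0.000248) and the receptor gene Pdgfra by 0.75 (limma adjusted p = 0.0454). Dcn and Postn were at -0.56 and -0.59 without overlap, and the collagen genes Col1a2 and Col3a1 at 0.23 and 0.39, also without overlap. The fibroblast sums, which the collagen genes lead, were 580997 to 712972 in NARA and 549282 to 687914 in vehicle.

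E2f1 had 1439, 1204, 1333 and 1595 in NARA at 48 h, each above the 3 vehicle arrays, and was 1.37-fold higher (log2 difference 0.45 ± 0.122, limma adjusted p = 0.0800). With only probe sets of a mean signal of at least 1000 tested, E2f1 had an adjusted p of 0.0243 in limma, and over the other alternatives it lay between 0.0594 and 1.00, the last with all 16 arrays. Gins1 had 635, 650.4, 555 and 529, all above the vehicle arrays, and was 1.60-fold higher (0.67 ± 0.205, limma adjusted p = 0.117). Neither gene's groups overlapped. Rfc2, a clamp loader subunit, had 2829, 3083, 2925 and 2919 against 2226, 2009 and 2556 in vehicle, a difference of 0.38 ± 0.135. Cdc45 had 1898, 1881, 1993 and 2018 against 1764, 1558 and 1661, a small difference of 0.22 ± 0.0909 whose arrays did not overlap. Its other probe sets were at 0.68 and -0.25. The brightest one also had 2031 and 1785 in the left-out NARA 4 h arrays with liver signals, and whether it measures Cdc45 alone was not tested.

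Chaf1b had 754, 465, 615 and 336 in NARA and 193, 209.7 and 189.8 in vehicle at 48 h, with no overlap. These values took part in its choice, so no test is given. The left-out vehicle 48 h replicate 1 had 487, within the range of NARA. Prim2 had 673, 883, 639 and 672 in NARA, and the vehicle arrays ranged across these values, so its difference of 1.02 ± 0.410 came with overlap. It was 1.58 without vehicle 48 h replicate 3, with an adjusted p of 0.0420 in limma, and 0.50 without replicate 4. In limma's other alternatives the adjusted p of Prim2 was 0.119 to 0.751.

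Genes of the helicase ring were close to 0 with NARA at 48 h, from -0.074 to 0.17 over 6 genes. The 4 genes of nucleotide supply were all above 0, with a median of 0.14 beside 0.094 for the members, from 0.041 to 0.22. Pcna had 11286, 11814, 10094 and 10589 in NARA, above each vehicle array at 48 h and with the highest of them above the lowest vehicle array at 4 h, a log2 difference of 0.22 ± 0.111 (limma adjusted p = 0.371). Rrm1 and Tk1, both lower with culture time, were at 0.10 ± 0.155 and 0.18 ± 0.192, and another probe set of Tk1 was at 0.45, with an unadjusted p of 0.0278. For Tk1 the 4 NARA arrays, 2496, 2135, 2202 and 2199, overlapped those of vehicle at 48 h, and the highest of them lay just below the lowest vehicle array at 4 h. Pole, of polymerase epsilon, was at 0.38 ± 0.206 and Rfc3 at 0.24 ± 0.139. Rpa2 was at -0.098 ± 0.122, Pold2 at -0.10 ± 0.112, Lig1 at -0.14 ± 0.189, Gmnn at -0.18 ± 0.256 and Rfc5 at -0.24 ± 0.253, and the sign of Rfc5 turned to 0.11 as the mean of its probe sets. On the lower side Ccne1, which starts S phase with its kinase partner, was at -0.88 ± 0.484, with widely spread signals of 113, 409, 136 and 703 in NARA and 686, 581 and 389 in vehicle.

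**Figure D4:**
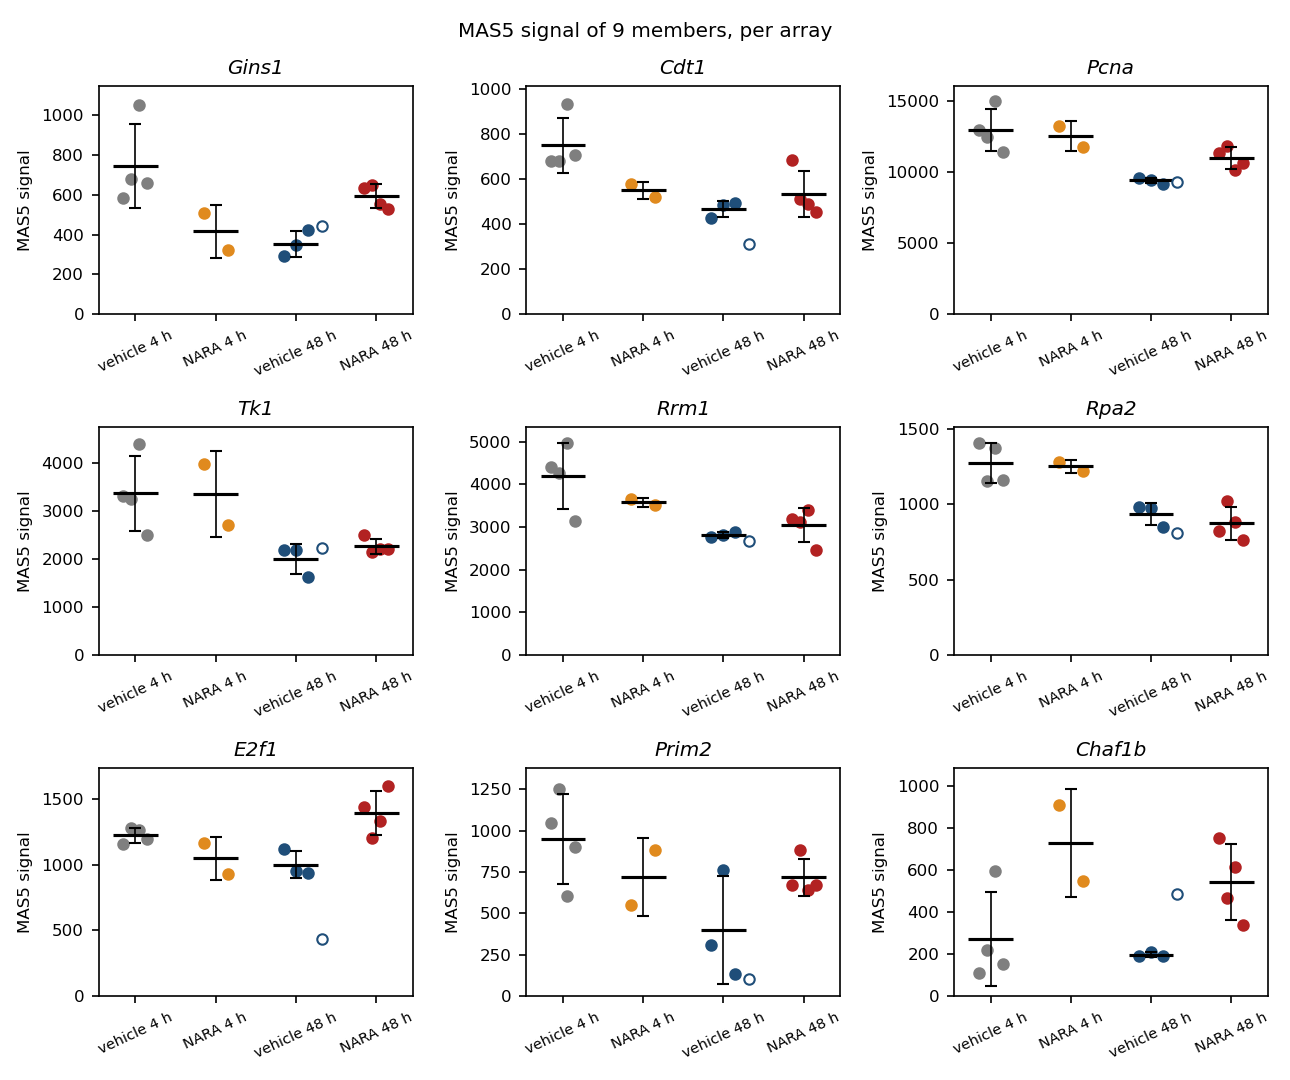
MAS5 signal (linear, from 0) of 9 members in the 4 groups. Points are arrays, bars the mean with SD, and the open point is vehicle 48 h replicate 1, left out by the authors. Pcna, Rrm1 and Tk1 lie lower in every filled vehicle 48 h point than in any vehicle 4 h point, Gins1 and E2f1 lie higher in every NARA 48 h point than in any filled vehicle 48 h point, and Prim2 and Chaf1b vary widely among replicates.

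The difference between the NARA effects at 48 h and 4 h was tested directly. The members' median was 0.24 against -0.011 for all probe sets, and 29 of 39 were above 0, against 48.8%. Gins1 had the smallest p, with a difference of 1.44 ± 0.309 and limma adjusted p = 0.140, being lower in NARA at 4 h and higher at 48 h. E2f1 followed at 0.67 ± 0.185 (limma adjusted p = 0.279) and Cdt1 at 0.57 ± 0.228. For Prim2 it was 1.40 ± 0.619 and for Pold1 1.56 ± 0.693. With an unadjusted p under 0.05, 5 members were higher and 0 lower, against 4.6% and 4.4% of all, and 0 passed after adjustment in limma, against 0.124% of all. Without NARA 4 h replicate 3 the median was 0.097, with 3 members higher at an unadjusted p under 0.05. That count was also 3 without NARA 48 h replicate 1 or replicate 3.

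Other genes of the pathway were taken from lists that overlap no member. Of 29 further replication genes measured, 22 were below 0 with culture time, against 49.2% of all probe sets, with a median of -0.11, and 5 lower and 0 higher genes had an unadjusted p under 0.05, against 3.89% and 3.45%. Nasp, a histone chaperone of S phase, had 2402 ± 238 (SD, n = 4) in the 4 h vehicle group against 1441 ± 212 (SD, n = 3) at 48 h, a log2 change of -0.72 ± 0.141 (limma adjusted p = 0.421). Atad5, which unloads PCNA, was at -0.48, and at -0.50 with NARA at 4 h and 0.49 at 48 h. Of 12 other genes of nucleotide synthesis, 7 were below 0 with culture time, near the share of all probe sets, among them Mthfd1, of folate metabolism, at -0.41, and Ctps1, which makes CTP, at -0.32. Neither list had a gene past limma's adjusted threshold in any of the 4 comparisons.

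Among 24 other regulators of G1/S and E2F, 13 were below 0 with culture time, again near the 49.2% of all probe sets, with a median of -0.081. Rbl1, the p107 pocket protein and itself an E2F target, was at -0.68 ± 0.178 and E2f8, a repressor E2F, at -0.69 ± 0.283. Cdkn1c, the CDK inhibitor p57, fell with NARA at 48 h by 0.95 on the log2 scale (SE 0.226), from 526 ± 88.4 (SD, n = 3) to 249 ± 54.4 (SD, n = 4), with limma adjusted p = 0.0488. No other gene of these 24 passed the threshold in any of the 4 comparisons. Its direction was kept in all 25 alternatives that could be run for it, but its adjusted p in limma, 0.0156 to 0.374, missed the threshold in 18 of them, among them those that left out any array but vehicle 4 h replicate 1. Cdkn1b, the CDK inhibitor p27, was at -0.30 ± 0.0814 in the same comparison (limma adjusted p = 0.0833). The 33 mitosis genes, transcribed later in the cycle, had medians of -0.51 with culture time, -0.14 with NARA at 4 h and 0.27 at 48 h, beside -0.26, -0.046 and 0.094 for the members. Of them 32 were below 0 with culture time and 20 had an unadjusted p under 0.05, against 49.2% and 3.89% of all probe sets, and 0 passed after adjustment in limma.

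The arrays that the authors left out were not part of these fits, and their values are given as a description. Vehicle 48 h replicate 1 had a mean member deviation of -0.24, just below the other 3 arrays of its group. In it 34 of 39 members lay below the vehicle 4 h mean, against 45.4% of all probe sets. Its signals were 9285 for Pcna, 2679.9 for Rrm1 and 441 for Gins1, each below every vehicle 4 h array. E2f1 was at 436, below all 13 arrays. In the 2 left-out NARA 4 h arrays the mean deviation was -1.18 and -1.23, and 29 of 39 members lay below every vehicle 4 h array in both, against 34.6% of all probe sets. Pcna, for example, had 3455 and 3454 there.

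Further probe sets were available for 9 member genes, 11 in all. With culture time 6 of the 11 had the sign of the brightest and 5 the opposite one, those of Ccne2, Dut, Gmnn, Lig1 and Mcm10. In none of these pairs did both probe sets have an unadjusted p under 0.05. All 3 probe sets of Tk1 were lower with an unadjusted p under 0.05, and the 3 of Cdc45 were below 0. With NARA at 48 h, 6 of the 11 had the sign of the brightest and 5 the opposite one, those of Ccne2, Cdc45, Dut, Lig1 and Rfc5. The probe sets of Tk1 were then at 0.18, 0.45 and 0.80, and those of Cdc45 at 0.22, 0.68 and -0.25.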

How the data were processed

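RNA of 16 cell samples was measured on Affymetrix rat arrays, 1 per sample, from 5 µg of total RNA per the labels' protocols. Each deposited intensity is a MAS5 signal, per the submitters' processing notes, scaled by the authors to a trimmed mean of 1500, per the series' design text, and the values had a trimmed mean (0.02 cut from each end) between 1500.45 and 1500.56. The labels' protocols name Trizol extraction, and the series' design text an RNA isolation kit.

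The 3 arrays the authors left out were left out here too. Of 31099 probe sets, 57 controls were set aside and the rest were tested where their signal averaged 300 or more on the 13 arrays (20904, of which 15458 had 1 symbol). Of the 31042 non-control probe sets, the platform annotation gave 20826 exactly 1 symbol, 436 several and 9780 none. Values were transformed as log2(signal + 50), which understates changes of dim probe sets. The 4 groups' means were estimated in limma 3.58.1 in R 4.3.3, with 9 residual and 2.40 prior degrees of freedom, two-sided tests and Benjamini-Hochberg adjustment over all probe sets tested. The number of arrays limits the precision.

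The fit was tested on simulated data. The members, lists and tests were chosen with earlier results of these data known. Named members were, per comparison, the 6 of smallest p in each direction, those with an unadjusted p under 0.05, and any that passed. For culture time alone, the member of smallest p of each role group was added. Up to 3 genes by p were named from each other list. Cell type markers were named after their values were seen. A range of alternatives was tried, 26 in all: offsets, signal minima, scaling, arrays included, prior, replicate block, probe set choice and leaving out each array.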

Additional observations from a re-analysis of the deposited data

Results flagged for a closer look

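In groups of 4 arrays, a value was looked at again where its gap to the nearest other array took up more of the group's range than Dixon's critical value for 4 values, which chance alone does in about 1 in 20 groups. Over 39 members in each of the 2 groups of 4 arrays, 5 were past it, and 4 of these concerned NARA 48 h replicate 2. The share over all probe sets is not given here, so neither count is read as a result about the members or that array. In that array Fen1 had a signal of 692 against 1166 to 1253 in the other 3 arrays, and Prim1 5322 against 6184 to 6339.6. Rpa1 had 989 against 1777 to 1846, while Prim2 was higher there, at 883 against 639 to 673. Cdt1 had 934 in vehicle 4 h replicate 3 against 680.0 to 705 in the other arrays of that group.

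In the 2 NARA 4 h arrays left out by the authors, 2 members lay above every vehicle 4 h array, against 27% of all probe sets. Chaf1b had at least 1062 in both, against 111 to 598 in vehicle. Mcm10 had at least 1218, against 737 to 1043.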

How the results depend on the processing

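For culture time, the members' median stayed between -0.32 and -0.23 in all 26 alternatives. The 14 lower members that were named by their p kept their direction in each alternative that could be run for them. The remaining lower members were not followed.

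With all 16 arrays, the unadjusted counts were 3 lower for culture time, 21 lower at 4 h, 3 higher at 48 h and 11 higher for the difference of effects. The medians were then -0.75 at 4 h and 0.93 for the difference. In the same fit Ccne2, Rfc3, Mcm7 and Ccne1 turned to -0.32, -0.70, -0.42 and -0.61 at 4 h. For the difference, Ccne1, Mcm7, Lig1 and Ccne2 turned to 0.087, 0.42, 0.21 and 0.54. This fit holds the 2 arrays with liver signals. With array weights over all 16 these turns were not seen.

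With a minimum signal of 1000, which 26 members reach, the unadjusted counts were 0 higher and 3 lower at 4 h, 3 higher at 48 h and 1 higher for the difference, and 1 member (E2f1) passed at 48 h. With the mean of a gene's probe sets, 2 (Chaf1b and Ccne2) were higher at 4 h and 1 lower for the difference. Chaf1b and a probe set of Ccne2 averaged under the minimum in vehicle, so these 2 are a description with no test. With the same mean, Mcm10 (culture time), Gmnn (4 h) and Rfc5 (48 h) turned to -0.15, 0.12 and 0.11. The cause was not tested for any of these.

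Replicate numbers showed no sign of pairing the samples. The deviations of 16 same-numbered pairs of arrays from different groups, among the 13, correlated at -0.0364 to 0.0387. The labels give only a shared number, and such correlations cannot exclude pairing. With the replicate number as a block, the unadjusted counts were 3 higher at 48 h and 3 higher for the difference, Mcm10 was at -0.061 for culture time, and the block changed no adjusted call of a member, while Cdkn1c at 48 h lost its call.

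Leaving out each array in turn, where the single NARA 4 h array then left is taken to spread as the other groups do, gave these ranges. Chaf1b stayed among the members counted. For culture time, 0 members were higher and 8 to 15 lower at an unadjusted p under 0.05, 0 passed adjustment in limma, and the median was -0.32 to -0.25. For NARA at 4 h, 0 to 2 members were higher and 1 to 6 lower at an unadjusted p under 0.05, 0 passed adjustment in limma, and the median was -0.17 to 3.3e-05. For NARA at 48 h, 4 to 6 members were higher and 0 to 1 lower at an unadjusted p under 0.05, 0 to 1 passed adjustment in limma, and the median was 0.056 to 0.13. For the difference of effects, 3 to 5 members were higher and 0 to 1 lower at an unadjusted p under 0.05, 0 passed adjustment in limma, and the median was 0.097 to 0.30. Genes near 0 that turned sign without some array were Mcm5 (culture time) with a range of -0.15 to 0.23, Uhrf1 (culture time) with a range of -0.094 to 0.22, Mcm10 (culture time) with a range of -0.20 to 0.14, Mcm7 (NARA at 4 h) with a range of -0.027 to 0.38, Rfc5 (NARA at 48 h) with a range of -0.57 to 0.057, Rfc5 (the difference of effects) with a range of -0.60 to 0.026 and Mcm5 (the difference of effects) with a range of -0.40 to 0.035. At 48 h the member that passed was Prim2 without vehicle 48 h replicate 3. Without vehicle 4 h replicate 3 it was Chaf1b, whose NARA values took part in its choice, so this is not a test result.

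In an alternative chosen after seeing the data, Chaf1b, whose vehicle arrays averaged under the minimum, was left out, and 0 members were then higher at 4 h.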
